A study of Mus musculus with 6 samples.

Results

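The genes described here are 10 subunits of the integrins that bind collagen, fibronectin and other matrix proteins: *Itga1*, *Itga2*, *Itga5*, *Itga8*, *Itga10*, *Itga11*, *Itgav*, *Itgb1*, *Itgb3* and *Itgb5*. They were taken from the table by symbol, as subunits of receptors for these ligands. All 10 were among the 28987 genes of the expression table, and all 10 were among the 15109 genes kept for testing (those whose linear values averaged 1 or more across the libraries).

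RNA-seq was done on EGFP+ cells that had been flow-sorted from mouse ventricles, 4 weeks after the aorta was constricted by surgery (TAC) to put the heart under pressure overload. All mice carried a MerCreMer cDNA knocked into the *Postn* locus and the R26 eGFP reporter, were 8 to 10 weeks old at surgery, and received tamoxifen by injection (100 mg/kg in the labels) together with chow (40 mg/kg in the labels), where the paper's methods give other doses. The 3 control libraries had no further allele named in the labels. The 3 libraries labelled Hsp47-deleted came from mice that also carried loxP-flanked *Hsp47* (*Serpinh1*), which encodes a collagen chaperone of the endoplasmic reticulum. Because Cre is driven from *Postn*, reporter and deletion are both limited to cells that have switched on this gene, which in the injured heart are activated fibroblasts (myofibroblasts).

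An integrin is a pair of 1 α and 1 β subunit that spans the membrane and joins the matrix outside to the actin cytoskeleton inside. The α subunit largely sets the ligand. The α1, α2, α10 and α11 subunits each pair with β1 to bind collagens, α5 with β1 binds fibronectin, and the αv subunit pairs with β1, β3 or β5 to bind proteins that carry the RGD motif, including the latent form of TGF-β. In the heart, fibroblasts use these receptors to hold and to sense the collagen network that they build.

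Values are given as deposited, as log2(value + 1), in the order control replicates 2, 3 and 4 and then Hsp47-deleted replicates 1, 2 and 3. The linear unit is not named in the sources used here, so that levels were compared between libraries and not between genes. Per the labels, control replicates 3 and 4 were in 1 sequencing run (the first run below), and control replicate 2 was in another together with all 3 libraries labelled Hsp47-deleted (the second run). The linear values summed to between 690499 and 809085 in the controls and between 800714 and 855404 in the libraries labelled Hsp47-deleted. Across all tested genes the median log2 fold change was 0.35, and 74.5% of genes had a positive one, so that a small positive value for an integrin gene was the usual value. The targeted gene *Serpinh1* stood at 7.60, 6.28 and 6.10 in the controls and 6.87, 6.67 and 6.66 in the libraries labelled Hsp47-deleted. It was thus lower in all 3 of them than in the 1 control of the same run (mean difference -0.87) and higher than in both controls of the first run. Over all 6 libraries the log2 fold change was 0.07 (Benjamini-Hochberg adjusted p = 0.947 by limma), and groups are therefore called by their labels. For protein, the paper reports efficient loss of Hsp47 by Western blot of EGFP+ cells sorted from hearts of this genotype. The table holds 1 value per gene, so that the deleted exon could not be read on its own.

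Of the 10 integrin genes, *Itga11* was the one whose groups did not overlap. It was 3.32-fold higher, on the log2(value + 1) scale, in the libraries labelled Hsp47-deleted. The other 9 genes overlapped between the groups, with log2 fold changes from -0.05 to 1.07. No integrin gene passed a Benjamini-Hochberg adjusted p of 0.05 in limma, a threshold that 0.245% of all tested genes passed, and 1 of the 10 (*Itga11*) had an unadjusted p under 0.05, against 15.2% of all tested genes (14.5% with a higher level in the libraries labelled Hsp47-deleted). Groups that did not overlap, with the higher level in the libraries labelled Hsp47-deleted, were found for 18.3% of all tested genes, so that neither count of 1 in 10 exceeded the share over all genes. The median log2 fold change of the 10 was 0.31, which was 0.05 below that of all tested genes, and 8 of the 10 were positive.

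**Figure D1:**
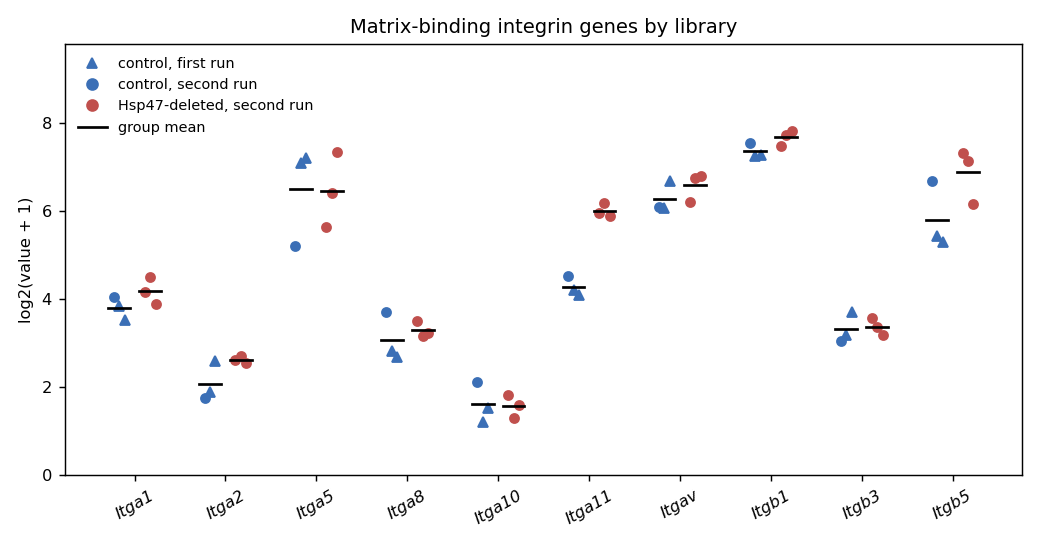
Expression of the 10 integrin genes in each library, as log2(value + 1) on the vertical axis; each point is 1 library and the horizontal bars are group means, with the sequencing run shown by the marker. *Itga11* is at 4.09 to 4.52 in the controls and 5.88 to 6.19 in the libraries labelled Hsp47-deleted, and the points of the other 9 genes overlap.

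*Itga11* (chromosome 9, 62677826 to 62783982, plus strand, GRCm38) encodes the α11 subunit, a receptor for fibrillar collagen that is found mainly on fibroblasts. Its promoter sequence is shown because it had the smallest p of the 10, although it did not pass adjustment. The 221 bases directly before the start of the gene in GENCODE M21, chr9:62677605-62677825 on the plus strand in GRCm38.p6, are given with CpG dinucleotides in capitals. They were taken from the RefSeq promoter entry, in which the start of the gene lies further downstream.
*Itga11* promoter: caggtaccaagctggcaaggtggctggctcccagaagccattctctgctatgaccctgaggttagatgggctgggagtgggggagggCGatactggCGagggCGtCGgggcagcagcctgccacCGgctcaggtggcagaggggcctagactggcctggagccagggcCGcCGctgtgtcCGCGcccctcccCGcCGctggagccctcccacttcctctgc

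This stretch holds 11 CpG dinucleotides and 69.2% G and C. In the window of 250 bases before to 50 bases after the RefSeq start, *Itga11* had 68% G and C and 16 CpG dinucleotides, against medians of 52.7% and 7 over 32851 promoters. Both strands of that window were searched for the GC box GGGCGG (in 35.7% of all promoters), the Smad box CAGAC (49.6%), the AP-1 site TGANTCA (7.81%), the TATA box TATAAA (13.6%), the TEAD site GGAATG (14.7%) and the CArG box (1.63%), and none was present in these letters. Of the 9 integrin genes with a promoter entry, *Itga2*, *Itga5*, *Itgav*, *Itgb1* and *Itgb5* held a GC box, and *Itga1*, *Itga2*, *Itga5* and *Itgb1* held a Smad box. These matches describe the letters of the windows and were not related to the measured values.

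The level of *Itga11* was 4.52, 4.22 and 4.09 in the controls and 5.95, 6.19 and 5.88 in the libraries labelled Hsp47-deleted. Every library labelled Hsp47-deleted was above every control. The group means were 4.28 ± 0.22 and 6.01 ± 0.16 (SD, n = 3 each), and the log2 fold change was 1.73 with a standard error of 0.28 and a 95% confidence interval from 1.08 to 2.38. By limma it ranked 59 of 15109 genes by p, and its Benjamini-Hochberg adjusted p was 0.0727. In the linear unit the means were 18.5 and 63.6.

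The difference was also present within the second run, where the 3 libraries labelled Hsp47-deleted were on average 1.49 above the control of that run. The fit with sequencing run as a covariate gives this same log2 fold change, as it too rests on that 1 control. With sequencing run as a covariate the unadjusted p was 0.00272 and the adjusted p 0.256 in limma, and *Itga11* was again the only integrin gene with an unadjusted p under 0.05, against 6.73% of all tested genes. With each library centred on its own median the log2 fold change of *Itga11* was 1.31 (adjusted p = 0.246). Leaving out control replicate 2 gave 1.85 and an adjusted p of 0.00681, but all controls are then of the first run and all libraries labelled Hsp47-deleted of the second, so that run and label cannot be told apart, and 2768 of the 15109 genes passed.

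The other 3 collagen-binding α subunits overlapped between the groups. *Itga1* (chromosome 13, 114953096 to 115101964, minus strand) encodes α1, which binds collagen IV of basement membranes as well as fibrillar collagens. It stood at 4.06, 3.85 and 3.52 in the controls and 4.16, 4.50 and 3.89 in the libraries labelled Hsp47-deleted. The groups overlapped, and the log2 fold change was 0.38 with an interval from -0.35 to 1.10 (adjusted p = 0.566, limma). In GENCODE M21, 3.68% of its exonic bases lie also in exons of *Gm49395* on the same strand.

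*Itga2* (chromosome 13, 114833081 to 114932100, minus strand) encodes α2, the collagen receptor of platelets and many epithelia. It was low, at 1.75, 1.88 and 2.59 in the controls and 2.61, 2.70 and 2.55 in the libraries labelled Hsp47-deleted. Control replicate 4 lay within the range of the other group and the other 2 controls lay below it. The log2 fold change was 0.55 with an interval from -0.25 to 1.34 (adjusted p = 0.450, limma). Without control replicate 4 it was 0.80 (unadjusted p = 0.0438, adjusted p = 0.556, limma).

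*Itga10* (chromosome 3, 96645584 to 96664519, plus strand) encodes α10, which is best known from cartilage. Its values were near the floor of the table, at 2.12, 1.20 and 1.52 in the controls and 1.83, 1.30 and 1.59 in the libraries labelled Hsp47-deleted. The libraries labelled Hsp47-deleted lay within the range of the controls, and the log2 fold change was -0.04 with an interval from -0.90 to 0.82 (adjusted p = 0.968, limma). In GENCODE M21, 33.5% of its exonic bases lie also in exons of *Gm42957* on the same strand, so that its reads may have been divided between both.

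Among the α subunits of the fibronectin and RGD receptors, no gene separated the groups. *Itga5* (chromosome 15, 103344286 to 103366763, minus strand), the α chain of the main fibronectin receptor, varied most among replicates. It stood at 5.22, 7.10 and 7.21 in the controls and 5.63, 6.42 and 7.34 in the libraries labelled Hsp47-deleted. Control replicate 2 lay far below the other 2 controls, by a difference of -1.94 from their mean, while the libraries labelled Hsp47-deleted spread over nearly the same span. The log2 fold change was -0.05, with an interval from -1.52 to 1.43 (adjusted p = 0.978, limma). Within the second run the difference was 1.25, so that its direction differed from that of all 6 libraries.

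*Itga8* (chromosome 2, 12106632 to 12301922, minus strand) encodes α8, which with β1 binds RGD proteins such as nephronectin. It was 3.70, 2.82 and 2.69 in the controls and 3.51, 3.16 and 3.22 in the libraries labelled Hsp47-deleted. The highest value was the control of the second run and the 2 lowest were the controls of the first run. The log2 fold change was 0.23 (95% interval -0.61 to 1.07, adjusted p = 0.777, limma), and within the second run the difference was -0.40. Of its exonic bases 5.05% overlap the antisense gene *E030013I19Rik*.

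*Itgav* (chromosome 2, 83724397 to 83806916, plus strand) encodes αv, the shared α chain of the vitronectin receptors and of the integrins that activate latent TGF-β. Its values were 6.09, 6.08 and 6.69 in the controls and 6.21, 6.75 and 6.81 in the libraries labelled Hsp47-deleted. Control replicate 4 was higher than 1 of the libraries labelled Hsp47-deleted, and the groups overlapped. The log2 fold change was 0.30 with an interval from -0.44 to 1.05 (adjusted p = 0.658, limma), close to the median of all tested genes. Of its exonic bases 5.9% overlap *Gm13684* on the opposite strand.

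*Itgb1* (chromosome 8, 128685654 to 128733200, plus strand) encodes β1, the partner of all 4 collagen-binding α subunits and of α5 and α8. It had the narrowest range of the 10 genes over the 6 libraries, at 7.55, 7.25 and 7.29 in the controls and 7.48, 7.73 and 7.82 in the libraries labelled Hsp47-deleted. Its log2 fold change was 0.31 with an interval from -0.32 to 0.95 (adjusted p = 0.589, limma), and centring each library on its median gave -0.10.

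*Itgb3* (chromosome 11, 104608000 to 104670476, plus strand) encodes β3, a partner of αv and, in platelets, of αIIb. It stood at 3.04, 3.18 and 3.71 in the controls and 3.58, 3.36 and 3.19 in the libraries labelled Hsp47-deleted. The highest value of all was a control, and the log2 fold change was 0.07 with an interval from -0.67 to 0.80 (adjusted p = 0.934, limma).

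*Itgb5* (chromosome 16, 33829665 to 33949338, plus strand) encodes β5, which with αv binds vitronectin. It was 6.68, 5.43 and 5.31 in the controls and 7.33, 7.15 and 6.15 in the libraries labelled Hsp47-deleted. Control replicate 2 was above Hsp47-deleted replicate 3, and the controls of the first run were below all other libraries. The log2 fold change was 1.07 with an interval from -0.04 to 2.19 (unadjusted p = 0.0567 and adjusted p = 0.335, limma), and with sequencing run as a covariate, as within the second run, it was 0.20 (unadjusted p = 0.693, limma). Leaving out control replicate 2 gave 1.51 (adjusted p = 0.0382), in the fit that passes 2768 genes and in which run and label cannot be told apart. Leaving out Hsp47-deleted replicate 3 gave 1.44 (unadjusted p = 0.0223, limma), and the part of the run in this difference was not tested.

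**Figure D2:**
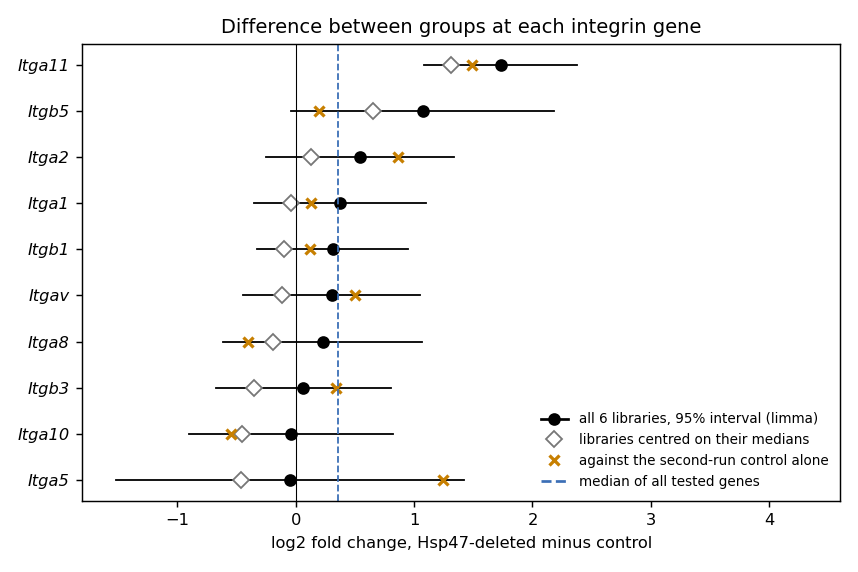
Log2 fold change of each integrin gene, libraries labelled Hsp47-deleted minus control, with its 95% confidence interval from limma over all 6 libraries, the value with libraries centred on their medians (diamonds), the difference within the second run (crosses) and the median of all tested genes (dashed line, 0.35). The interval of *Itga11*, from 1.08 to 2.38, lies above 0, and those of the other 9 genes include 0.

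The plot of fold changes also sets the difference within the second run beside that over all 6 libraries. Because that run holds 1 control, an effect of the run and a trait of this 1 library cannot be told apart. Within the second run alone, in which 1 control is set against 3 libraries labelled Hsp47-deleted and no test was made, all 3 were above the control for *Itga2*, *Itga5*, *Itga11*, *Itgav* and *Itgb3*, as for 46.7% of all tested genes, and all 3 were below it for *Itga8* and *Itga10*, as for 11.7% of all tested genes. The median difference of the 10 genes was 0.27, against 0.29 for all tested genes. After centring each library on its median, 3 of the 10 genes had a positive log2 fold change, against 45.7% of all tested genes, and the median of the 10 was -0.11, against -0.06.

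**Figure D3:**
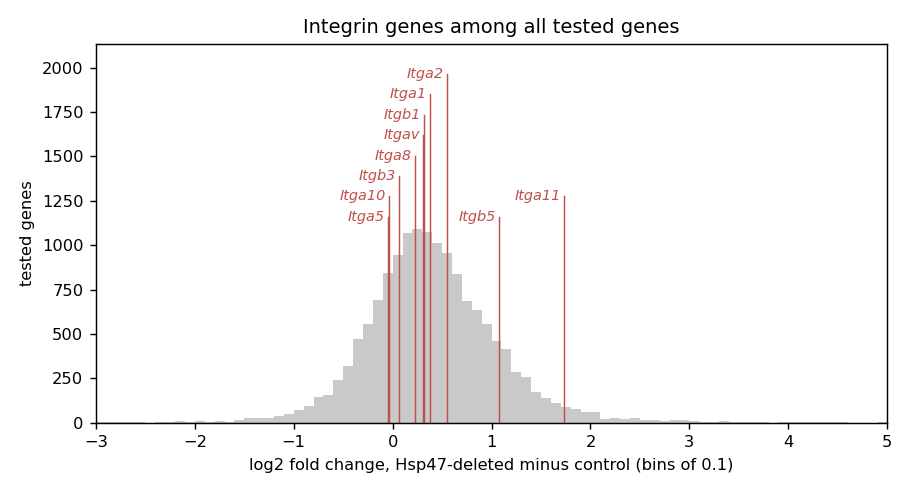
Number of tested genes (vertical axis) by log2 fold change in bins of 0.1 (horizontal axis), libraries labelled Hsp47-deleted minus control, for the 15109 tested genes, with a red line at each integrin gene. *Itga11* at 1.73 lies above 96.7% of genes, *Itgb5* at 1.07 above 86.5%, and the other 8 lie between -0.05 and 0.55.

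Because α and β chains are used as pairs, the difference of 2 subunits within a library was also compared, which does not depend on how a library was scaled except through the pseudocount. *Itga11* minus *Itgb1* was -3.03, -3.03 and -3.19 in the controls and -1.53, -1.55 and -1.93 in the libraries labelled Hsp47-deleted. The groups did not overlap and differed by 1.42, and within the second run by 1.36. *Itga11* minus *Itga1*, which sets both collagen receptors against each other, was 0.47, 0.37 and 0.57 in the controls and 1.79, 1.68 and 1.99 in the libraries labelled Hsp47-deleted. These too did not overlap, and differed by 1.35. For both, the exact two-sided permutation p was 0.1, the smallest that 3 libraries against 3 allow, and 0.5 after Benjamini-Hochberg adjustment over the 10 balances.

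The 8 other balances overlapped between the groups. Against *Itgb1*, the differences were 0.06 for *Itga1*, 0.23 for *Itga2*, -0.36 for *Itga5*, -0.09 for *Itga8*, -0.35 for *Itga10* and -0.01 for *Itgav*. The balance of *Itgb5* to *Itgav* differed by 0.77 over all libraries and by -0.30 within the second run. That of *Itgb3* to *Itgav* differed by -0.24.

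**Figure D4:**
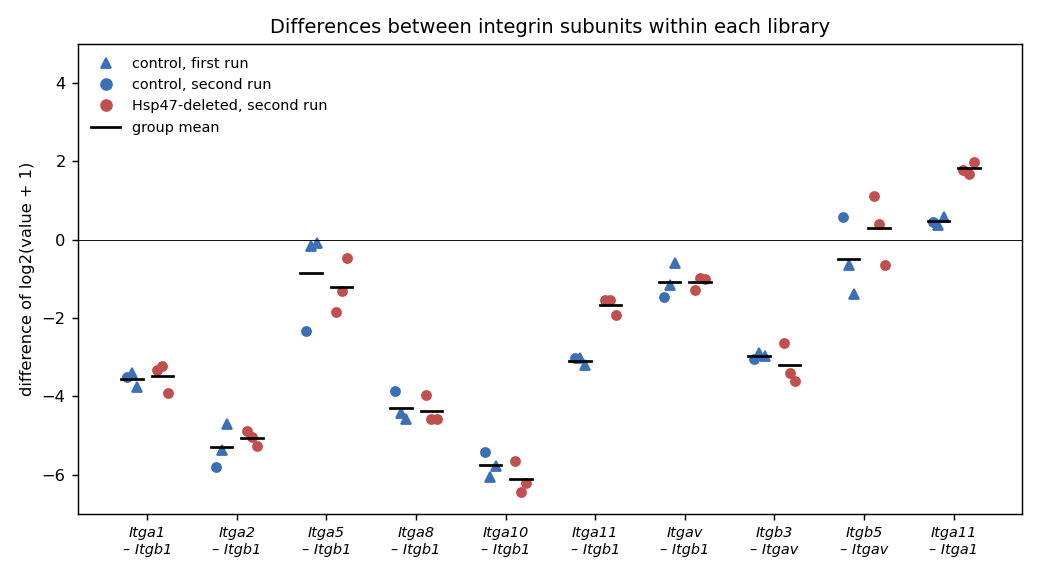
Difference of the log2(value + 1) values of 2 integrin genes within each library (vertical axis), for the 10 balances compared; each point is 1 library and the horizontal bars are group means. *Itga11* minus *Itgb1* and *Itga11* minus *Itga1* are higher in every library labelled Hsp47-deleted than in every control, and the other 8 balances overlap.

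Genes whose levels followed those of an integrin gene were sought among genes with a linear mean of at least 10. Median-centred values over the 6 libraries were used, which share the 2 runs and the 2 labels. Each gene named as most alike had the highest r of 6470 or 6471 candidates. Over 6 libraries such a choice by itself gives a high r, and no test was made. For *Itga11* the gene most alike was *Angptl7* (Pearson r = 0.997), and 35 genes exceeded 0.95. *Itga5* had far more such neighbours, with 479 genes over 0.95 and *Zdhhc5* the most alike at 0.9995. For *Itgb5*, 187 genes exceeded 0.95 and the first was *Vwa1* (0.994). The first for the others were *Ndst1* for *Itga1* (0.985), *Cd68* for *Itga2* (0.981), *Sec11a* for *Itga8* (0.992), *Ptpmt1* for *Itga10* (0.981), *Baiap2l1* for *Itgav* (0.996), *Med31* for *Itgb1* (0.996) and *Grsf1* for *Itgb3* (0.984). Among the integrin genes themselves, r was highest for *Itga5* with *Itgav* (0.88) and lowest for *Itga2* with *Itga8* (-0.94). For *Itga11*, r ran from -0.70 with *Itga10* to 0.61 with *Itgb5*.

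The other genes of the integrin system were taken from 4 lists, whose counts are to be read against the 15.2% of all tested genes with an unadjusted p under 0.05, most of which (2188 of 2302) had a positive log2 fold change. With sequencing run as a covariate the share of all genes was 6.73%. In that fit each log2 fold change equals the difference from the 1 control of the second run. A trait of that library, control replicate 2, thus enters every value given with the run. Of 17 other integrin subunits, 13 were tested, and 1 had an unadjusted p under 0.05 (*Itga7*, which with β1 binds laminin). *Itga7* was low, at 1.04, 0.89 and 0.74 in the controls and 1.71, 1.68 and 1.69 in the libraries labelled Hsp47-deleted (adjusted p = 0.306, limma), and with the run as a covariate its unadjusted p was 0.132 and none of the 13 was under 0.05. The next by p, *Itgb7*, a leukocyte subunit, had a log2 fold change of 0.78 (adjusted p = 0.348). The median log2 fold change of the 13 was 0.54.

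Of the matrix ligands of these receptors, 23 of 24 were tested and 6 had an unadjusted p under 0.05, all of them higher. With the run as a covariate 5 genes of the list were under it, but not all the same ones. *Fn1*, *Postn* and *Ccn2* were under it in both fits. *Thbs1* (log2 fold change 2.19) and *Vtn* (-1.64) were under it only with the run, and *Tgfb1*, *Ccn1* and *Mfge8* only without it. In the fit with no covariate 1 gene passed adjustment. That gene was *Postn*, which encodes periostin, a ligand of αv integrins, and whose locus carries Cre in both groups. *Postn* rose from a mean of 5.95 to 10.36, a log2 fold change of 4.41 (adjusted p = 0.00337, limma). *Ccn2*, a matricellular protein listed in the table as *Ctgf*, had a log2 fold change of 1.40 (adjusted p = 0.160). The main ligand of α11, the fibrillar collagens, had smaller values, with 0.69 for *Col5a1*, 0.67 for *Col1a1*, 0.52 for *Col1a2* and 0.14 for *Col3a1*. *Col5a1* and *Col1a2* were higher without overlap, as were 18.3% of all tested genes. By RT-PCR relative to *Gapdh* in sorted EGFP+ cells, the paper reports lower *Col1a1*, *Col3a1* and *Fn* with deletion. Here *Col1a1*, *Col3a1* and *Fn1* (0.86) had positive log2 fold changes. The median of the 23 was 0.51.

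Of 24 cytoplasmic partners of the integrins, 22 were tested and 5 had an unadjusted p under 0.05, all higher. Of these, *Tns3* alone was also under 0.05 with the run as a covariate. The median difference of the list was 0.67 over all libraries and 0.25 within the second run, where that of all tested genes was 0.29. *Actn1* (α-actinin, an actin crosslinker) had a log2 fold change of 1.03 and *Tns3* (a tensin) of 0.87, with adjusted p = 0.282 and 0.283 in limma. Of 13 other matrix receptors, 13 were tested and 2 had an unadjusted p under 0.05, also 2 with the run as a covariate. These were not the same 2 genes. *Sdc4* was under 0.05 in both fits, *Lrp1* only without the run and *Bsg* only with it. The log2 fold change of *Bsg* was -0.86 without the run and 1.08 with it. *Sdc4* (a syndecan that works with α5β1 on fibronectin) had a log2 fold change of 0.92 and *Lrp1* of 0.73, with adjusted p = 0.282 and 0.317. No gene of either list passed adjustment.

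In bulk libraries, fewer cells of a type and less RNA per cell cannot be told apart, so the summed linear values of marker lists are given beside the difference in *Itga11*. The 9 fibroblast markers, all detected, summed to between 9665 and 12964 in the controls and between 13837 and 15441 in the libraries labelled Hsp47-deleted, with 7 of 9 higher. The 7 myofibroblast markers summed to between 492 and 635 and between 2342 and 2990, with 7 of 7 higher, where 74.5% of all tested genes were. *Postn*, whose locus carries Cre, is 1 of the 7 and holds much of this sum. Without it, an alternative added after seeing the data, the sums were 435 to 566 in the controls and 1154 to 1612 in the libraries labelled Hsp47-deleted. The fibroblast and myofibroblast sums were thus both higher without overlap, as was *Itga11*, and their part in its difference was not tested. For both lists the highest control sum was that of control replicate 2, in the second run. For the fibroblast markers it was 12964, where the lowest sum of the libraries labelled Hsp47-deleted was 13837. Of the other lists, endothelial markers summed to between 95.8 and 274 against 173 and 266, mural markers to between 169 and 291 against 115 and 178, cardiomyocyte markers to between 41.7 and 198 against 136 and 223, and leukocyte and platelet markers to between 41.9 and 137 against 134 and 158. *Ptprc*, a leukocyte marker, was listed at 0 in every library, the only 1 of the 12 leukocyte and platelet genes to be so. Other genes of that list were detected in all 6 libraries, among them *Cd68* at 4.33 to 6.01 and *Itgam* at 2.05 to 3.94. Erythroid markers summed to between 11.5 and 615 against 168 and 392. These lists overlapped between the groups, and their part in the integrin values was not tested. Their markers too mostly had a higher mean in the libraries labelled Hsp47-deleted. This held for 9 of 10 endothelial, 10 of 12 leukocyte and platelet, 7 of 8 cardiomyocyte and 4 of 4 erythroid markers, but for 3 of 8 mural markers. A higher mean was thus not particular to the fibroblast and myofibroblast lists.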

How the data were processed

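RNA was amplified before library construction. Per the submitters' processing notes kallisto and mm10 were used; the paper names AltAnalyze. The authors deposited log2 values, log2(value + 1), for 28987 genes in 6 libraries, with group means and their own comparison (folds, p-values), which were not used. The linear unit is not given in the sources used here. The values are not counts, so that the sequencing depth is unknown. Where the labels do not state separate animals, p-values measure only the spread between these libraries, which may be technical.

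The comparison used limma (version 3.58.1, R 4.3.3, eBayes with trend, no covariate) on 15109 genes with a linear mean of at least 1, with Benjamini-Hochberg adjustment over all of them. Balances were tested with exact two-sided permutation tests (SciPy 1.17.1). Limma was tested on simulated data. Positions are from GENCODE M21, promoters from RefSeq (9 of the 10 matched). The integrin genes, gene lists and tests were chosen with earlier results of these data known. The named genes are the 10, *Serpinh1*, the 2 genes of each list with the smallest p, and for each integrin gene the 1 most alike. The collagen genes, and the other list genes named in comparing the fits with and without the run, were added with their values in view. Replicate numbers 2 and 3 occur in both groups but only name samples. Alternatives were the run as a covariate, the second run alone, the replicate block, other filters (none, 5) and pseudocounts (0.1, 5), median centring, quantile normalization, limma without trend or with robust estimation, and each library left out in turn.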

Additional observations from a re-analysis of the deposited data

How the results depend on the processing

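*Itga11* kept its direction and an unadjusted p under 0.05 in limma under all 16 alternatives with a test, with a log2 fold change of 1.64 to 1.85 when 1 library was left out, and its adjusted p was under 0.05 in 1 of them. The number of integrin genes at an unadjusted p under 0.05 was 1 to 2 when 1 library was left out, while the share of all tested genes went from 6.04% to 35.1%. It was 2 without control replicate 2 (35.1%), control replicate 4 (8.82%) or Hsp47-deleted replicate 3 (12.7%). The median of the 10 was 0.49 with the replicate block, -0.11 with centred libraries and -0.10 with quantile normalization. Its distance from the median of all genes was 0.073 with the replicate block, 0.24 with no filter and 0.080 with a pseudocount of 5. With the replicate block (2 shared numbers, r of deviations 0.16 and 0.23), *Itga11* was 1.67 (adjusted p = 0.442, limma), *Itga5* 0.72 and *Itga8* -0.068, and 0 genes passed adjustment, with 1545 at an unadjusted p under 0.05.

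Direction reversed as follows, and the cause was not tested. Centred, the log2 fold change was -0.040 for *Itga1*, -0.19 for *Itga8*, -0.11 for *Itgav*, -0.10 for *Itgb1* and -0.35 for *Itgb3*; with quantile normalization it was -0.013, -0.20, -0.040, -0.16 and -0.33. With run as a covariate, or the second run alone, *Itga5* was 1.25 and *Itga8* -0.40. Leaving out 1 library gave -0.69 to 0.37 for *Itga5*, -0.25 to 0.22 for *Itga10* and -0.070 to 0.27 for *Itgb3*. Balances against *Itgb1* were -0.0071 for *Itga1* and -0.013 for *Itga2* with a pseudocount of 5, and 1.12 for *Itga5* and 0.37 for *Itgav* in the second run, where *Itgb5* minus *Itgav* was -0.30. Leaving out 1 library, they ranged from -0.071 to 0.28 (*Itga1*), -0.024 to 0.53 (*Itga2*), -1.10 to 0.031 (*Itga5*), -0.29 to 0.13 (*Itga8*) and -0.20 to 0.23 (*Itgav*). A mean of at least 5 left out *Itga2* and *Itga10*. The precision is limited by 3 libraries a group and 1 control in the second run, and the depth is unknown.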

Other observations

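*Itgb6*, which encodes the epithelial partner of αv, was chosen after its values were seen. It stood at 1.26, 0.94 and 1.47 in the controls and 6.31, 3.52 and 0.88 in the libraries labelled Hsp47-deleted, so that 2 of these were above every control and 1 was below (log2 fold change 2.35, adjusted p = 0.366, limma). *Bsg*, *Cd44* and *Tln1*, also chosen after their values were seen, varied widely among the 3 controls. *Tln1* was 6.35, 8.82 and 5.24 there, *Bsg* 2.39, 5.51 and 5.10, and *Cd44* 6.23, 8.18 and 8.83. *Cd44* varied as widely in the libraries labelled Hsp47-deleted, at 6.42, 7.63 and 9.19. *Tln1* and *Bsg* varied less in those libraries (SD 0.11 and 0.27).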
